A study of Mus musculus with 12 samples.

Results

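The G protein coupled receptors that sense fatty acids, other lipids or oestrogen were followed in pancreatic islets, namely Ffar1, Ffar2, Ffar3, Ffar4, Gpr119 and Gper1. Members were taken as every array probe whose RefSeq accession maps to a symbol on this list, which gave 5 probes for 5 of the 6 genes, out of 41174 probes and 17305 named genes. Ffar3 had no probe that mapped to it, so no value is given for it. The receptors were selected on signals of these arrays, through the levels of Ffar2 and Gper1. Ffar2 was already known from the comparisons of ob/ob and of POKO with WT islets, and Gper1 from ob/ob vs. PPARγ2KO, so these 3 differences are given as a description with no test.

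Free fatty acid receptors let endocrine cells read circulating lipids. FFAR1 and FFAR4 bind long chain fatty acids, and FFAR1 signals through Gq to raise calcium and amplify glucose-stimulated insulin secretion. FFAR2 and FFAR3 bind the short chain acids acetate, propionate and butyrate, FFAR3 through Gi and FFAR2 through both Gi and Gq. GPR119 binds oleoylethanolamide and monoacylglycerols and couples to Gs and cyclic AMP, and GPER1 is a membrane receptor that responds to oestradiol.

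RNA came from islets of WT, PPARγ2KO, ob/ob and POKO mice, with 3 arrays per genotype and 12 in all. PPARγ2KO mice lack the PPARγ2 isoform in the whole body, ob/ob mice lack leptin and are obese, and POKO mice (labelled as the double knockout) carry both defects. All were on chow and on a mixed C57BL/6 x Sv129 background. The labels give an age of 4 weeks, whereas the study's text names a slightly higher one. Per the study the mice were female and islets of several mice were pooled per array. Islets were hand-picked after collagenase digestion and cultured overnight, so the RNA is that of whole islets with whatever exocrine, vascular and immune cells came along. In such bulk RNA, fewer cells of a type and less RNA per cell cannot be told apart.

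Each slide held 1 array of each genotype and each genotype always took the same position on the slide, so position and genotype cannot be told apart. Between 54.3% and 64.9% of probes were well above background on an array. The targeted gene gave no mismatch with the labels. The Pparg probe read 8.85 to 8.98 on the log2 scale in WT, 6.60 to 7.44 in PPARγ2KO, 8.54 to 9.77 in ob/ob and 6.41 to 7.14 in POKO, though which part of the transcript it reads is not given in the sources used here. Lep was not well above background on any array and gave no check. The tissue label was borne out by its markers, since all genes of the alpha, delta and PP lists and 6 of the 7 measured beta genes were well above background on all 12 arrays. The 6 acinar genes were as well, with a summed signal of 20.5 to 20.7 in every group.

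Ffar2, Ffar3 and Ffar1 lie next to each other on chromosome 7 (GRCm38.p6, from RefSeq), Ffar2 at chr7:30818031-30823775, Ffar3 at chr7:30854330-30856178 and Ffar1 at chr7:30860568-30861470. Ffar4 lies at chr19:38097079-38114263, Gpr119 at chrX:48667979-48674478 and Gper1 at chr5:139423150-139427800. The 250 bases before a start site are shown for Ffar2 and Gper1, the receptor genes with the largest differences in each direction, read 5′ to 3′ on the gene's strand. They come from RefSeq (GRCm38.p6), for Ffar2 chr7:30823776-30824025 on the minus strand and for Gper1 chr5:139422929-139423178 on the plus strand. The start site used for Gper1 lies inside the gene span given above. The last bases of its stretch, TATAAA among them, are therefore before that start site but within the span. Capitals mark AGGTCA, read here as TGACCT on the other strand, and CACGTG in Ffar2, and TATAAA in Gper1.
Ffar2: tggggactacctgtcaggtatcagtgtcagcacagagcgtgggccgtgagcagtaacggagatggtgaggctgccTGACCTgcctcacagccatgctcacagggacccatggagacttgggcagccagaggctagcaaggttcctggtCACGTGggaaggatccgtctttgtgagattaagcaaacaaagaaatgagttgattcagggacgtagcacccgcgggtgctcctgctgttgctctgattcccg
Gper1: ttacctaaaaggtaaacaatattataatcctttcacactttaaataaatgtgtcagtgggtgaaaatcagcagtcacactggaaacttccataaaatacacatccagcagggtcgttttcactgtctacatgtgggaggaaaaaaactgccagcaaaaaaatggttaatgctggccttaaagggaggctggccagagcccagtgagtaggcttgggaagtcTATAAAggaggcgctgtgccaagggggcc

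Windows of 300 bases, from 250 before to 50 after a start, were found for all 6 receptor genes, 9 windows in all of which 4 belong to Ffar2. The motifs were searched on both strands, and a match to a repeat of AGGTCA also counts as AGGTCA. None of the 9 windows held a direct repeat of AGGTCA spaced by 1 base, the DR1 element that PPARγ binds with RXR, which occurs in 0.0396% of all 32851 windows. None held the palindrome of GGTCA and TGACC spaced by 3 bases, an oestrogen response element, which occurs in 0.07%. AGGTCA, the core of many nuclear receptor sites, was in 3 of the 4 Ffar2 windows, of which windows 3 and 4 overlap and share their match, against 16.3% of all windows. Counted from the start site, CACGTG lay at position -102 of Ffar2 (7.15% of all windows) and TATAAA at position -29 of Gper1 (13.6%). The palindromic cyclic AMP response element was in the Ffar3 window only among the 9 (1.79% of all windows). These are matches of letters, and no binding was measured here.

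Of the 5 measured receptors 4 were well above background on all 12 arrays, and Ffar1 on 5 of 12. Values below are normalized signals on the log2 scale, and since each probe has its own brightness the level of one receptor cannot be set against another. Ffar2 was brighter and Gper1 dimmer in the leptin-deficient genotypes. Among the differences that were tested, Gper1 in ob/ob vs. WT was the only one with an adjusted p of at most 0.05, and none passed both criteria.

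**Figure D1:**
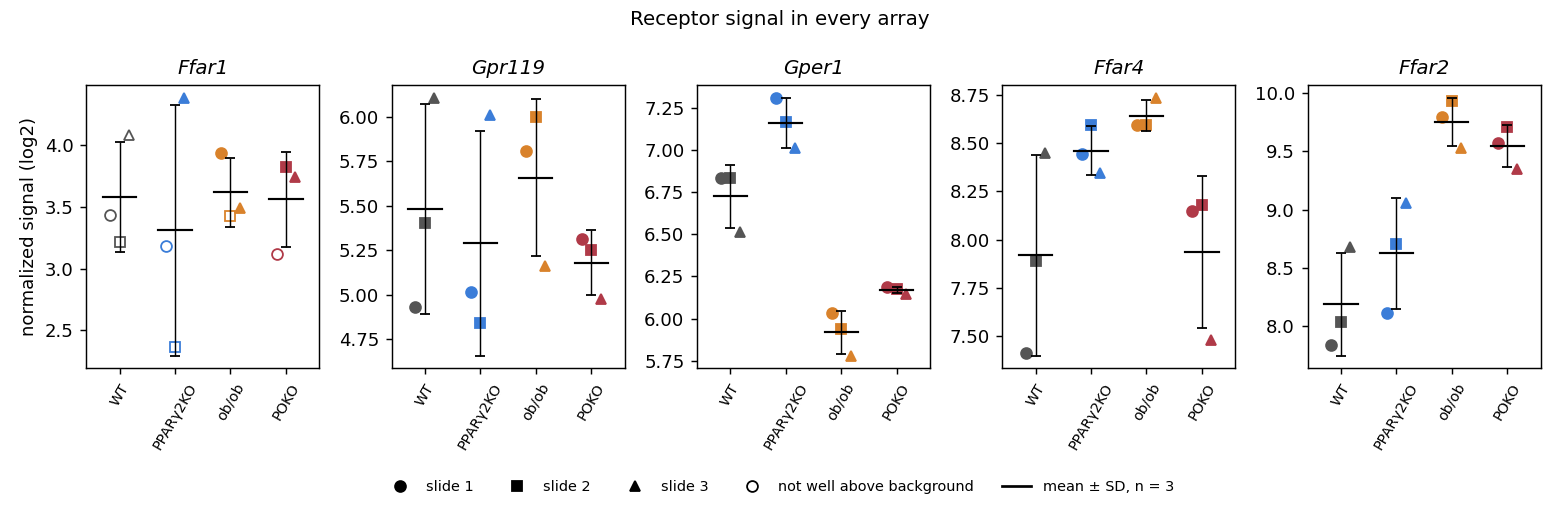
Normalized signal (log2) of the 5 measured receptor genes on each of the 12 arrays, by genotype. Points are arrays, shapes are slides, open points were not well above background, bars are the mean ± SD (n = 3), and each panel has its own vertical axis, which does not start at 0. In Gper1 the 4 genotypes do not overlap, and in Ffar2 all ob/ob and POKO arrays (9.35 to 9.94) lie above all WT and PPARγ2KO arrays (7.84 to 9.05).

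Ffar2, the short chain fatty acid receptor, was brighter in both leptin-deficient genotypes. In WT islets it read 7.84, 8.03 and 8.68, and in PPARγ2KO islets 8.11, 8.70 and 9.05. In ob/ob islets it read 9.79, 9.94 and 9.53, and in POKO islets 9.57, 9.71 and 9.35. Every ob/ob and POKO array was above every WT and PPARγ2KO array, whereas WT and PPARγ2KO overlapped, as did ob/ob and POKO. These levels chose the gene and are given as a description. The difference was 1.57 (SE 0.27), or 2.97-fold, for ob/ob against WT and 1.36 (SE 0.27), or 2.57-fold, for POKO against WT. In these comparisons 5.47% and 0.172% of all probes passed both criteria, an adjusted p no higher than 0.05 and a log2 fold change of 1 or more in size. No call is made for Ffar2 itself in these comparisons, and nothing is read about it from these shares. As many as 11.3% of probes had all ob/ob arrays above all WT arrays, and 9.22% had all POKO arrays above them.

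Against PPARγ2KO islets, Ffar2 was 1.13 higher in ob/ob (95% interval 0.51 to 1.74, limma adjusted p = 0.0969) and 0.92 higher in POKO (0.31 to 1.54, adjusted p = 0.302), on the log2 scale. These comparisons, and the others of this gene below, share arrays with those that chose the gene. Neither passed, although in both all arrays of the groups were apart, which 7.27% and 6.27% of probes also were in that direction. PPARγ2KO vs. WT differed by 0.44 (-0.17 to 1.06, adjusted p = 0.636). POKO vs. ob/ob differed by -0.21 (-0.82 to 0.41, adjusted p = 0.9), so a difference of up to 0.82 between these genotypes lies within the interval. On all 3 slides the order was ob/ob, POKO, PPARγ2KO, WT. The ob/ob minus WT difference was 1.96 and 1.90 on slides 1 and 2 and 0.85 on slide 3, where WT was at its brightest. With normexp background correction, with an offset of 50, it was 1.08. Without PPARγ2KO replicate 3 the ob/ob vs. PPARγ2KO difference was 1.35 (adjusted p = 0.0429).

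Gper1, the membrane oestrogen receptor, went the other way. It read 6.83, 6.84 and 6.51 in WT, 7.31, 7.17 and 7.01 in PPARγ2KO, 6.03, 5.94 and 5.78 in ob/ob and 6.19, 6.17 and 6.15 in POKO. The order from high to low was PPARγ2KO, WT, POKO and ob/ob, with no overlap between any of the 4 genotypes. Of 41055 probes measured on all arrays, 39 (0.095%) had no overlap between any pair of genotypes, in whatever order, and nothing is read from this share since Gper1 was chosen on these levels. The same order held on each slide. Taken pair by pair, such separation was common, with 29.9% of probes lower on all ob/ob than on all WT arrays and 25.6% lower on all POKO than on all WT arrays. Against PPARγ2KO the shares were 14.3% for ob/ob and 16.1% for POKO. For the upward steps, 4.1% of probes had all PPARγ2KO arrays above WT and 8.77% all POKO arrays above ob/ob. These pairwise shares include probes at background, whereas Gper1 was well above it on every array.

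Gper1 fell by 0.81 on the log2 scale in ob/ob vs. WT, or 1.75-fold lower (95% interval -1.07 to -0.55, adjusted p = 0.0148), which passed the test but not the fold criterion of 1. This comparison shares its ob/ob arrays with the difference that chose the gene, so its p is not independent of that choice. By the adjusted p alone 11.1% of all probes passed in this comparison, 6.14% of all probes with a lower signal in ob/ob, so a call of this kind was common there. In a fit on the WT and ob/ob arrays alone the adjusted p was 0.0657, and without WT replicate 2 it was 0.0563. POKO vs. WT was lower by 0.56 (-0.82 to -0.30, adjusted p = 0.0876) and POKO vs. PPARγ2KO by 0.99 (-1.25 to -0.73, adjusted p = 0.0633), and neither passed. Without WT replicate 3 both did, at adjusted p = 0.0392 and 0.048, and without PPARγ2KO replicate 2 or 3 the second did, at 0.0251 and 0.0194. POKO vs. PPARγ2KO shares its PPARγ2KO arrays with the difference that chose the gene, so its p values are not independent of that choice either.

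The smaller steps in the Gper1 order did not pass the test over all probes. Each of them shares arrays with the difference that chose the gene. PPARγ2KO was above WT by 0.44 (0.17 to 0.70, adjusted p = 0.444), on 3 of 3 slides, and POKO was above ob/ob by 0.25 (-0.01 to 0.51, adjusted p = 0.539), on 3 of 3 slides. In ob/ob vs. PPARγ2KO the difference that chose the gene was -1.24 (SE 0.12), given as a description with no test. Over all probes 0.00486% passed both criteria in POKO vs. PPARγ2KO. The share was 0.00243% in POKO vs. ob/ob and 0% in PPARγ2KO vs. WT. Normexp correction shrank the Gper1 difference in ob/ob vs. WT to -0.25 (adjusted p = 0.0155).

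Ffar4, a long chain fatty acid receptor known in islets mainly from delta cells, read 7.41, 7.89 and 8.45 in WT and 8.44, 8.60 and 8.35 in PPARγ2KO. It read 8.60, 8.60 and 8.74 in ob/ob and 8.15, 8.18 and 7.48 in POKO. All ob/ob arrays were above all WT arrays, as for 11.3% of probes, and all POKO arrays were below all ob/ob and all PPARγ2KO arrays, as for 8.94% and 16.1%. WT had the widest spread. The difference in ob/ob vs. WT was 0.73 (0.14 to 1.31, adjusted p = 0.0945), with 3 of 3 slides higher, by 1.18, 0.71 and 0.29. It came to 0.99 (adjusted p = 0.0206) without WT replicate 3. POKO vs. ob/ob was -0.71 (-1.29 to -0.12, adjusted p = 0.531), with all 3 slides lower, and POKO vs. PPARγ2KO was -0.53 (-1.11 to 0.06, adjusted p = 0.491).

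Whether PPARγ2 loss acted differently with and without leptin was asked by the interaction, the POKO minus ob/ob difference less the PPARγ2KO minus WT difference. For Ffar4 it was -1.25 (-2.08 to -0.42), with an adjusted p = 0.27 over all probes (limma), and was negative on 3 of 3 slides, at -1.48, -1.12 and -1.15. No probe passed the adjusted test for the interaction, while 13.9% had an unadjusted p of at most 0.05 in limma, as Ffar4 did. For Ffar2 the interaction was -0.65 (-1.52 to 0.22, adjusted p = 0.479), and for Gper1 -0.18 (-0.55 to 0.19, adjusted p = 0.623). In both genes it uses the arrays on which the gene was chosen. Delta cell markers, Sst and Hhex, had a summed signal of 15.0 to 16.3 in WT, 15.8 to 16.3 in PPARγ2KO, 15.6 to 16.2 in ob/ob and 14.6 to 15.4 in POKO, and their part in the Ffar4 values was not tested.

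Gpr119, the Gs-coupled receptor for monoacylglycerols, read 4.93, 5.41 and 6.11 in WT, 5.02, 4.84 and 6.01 in PPARγ2KO, 5.81, 6.00 and 5.16 in ob/ob and 5.31, 5.25 and 4.98 in POKO. The groups overlapped in all 6 comparisons. The widest difference was -0.48 in POKO vs. ob/ob (-1.33 to 0.37, adjusted p = 0.719), and in ob/ob vs. WT the interval ran from -0.67 to 1.03. Ffar1, the Gq-coupled receptor of beta cells, was well above background on 0 of 3 WT, 1 PPARγ2KO, 2 ob/ob and 2 POKO arrays, with signals from 2.36 to 4.39. In ob/ob vs. WT its interval reached up to 1.08, so a rise as large as the fold criterion lies within it.

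**Figure D2:**
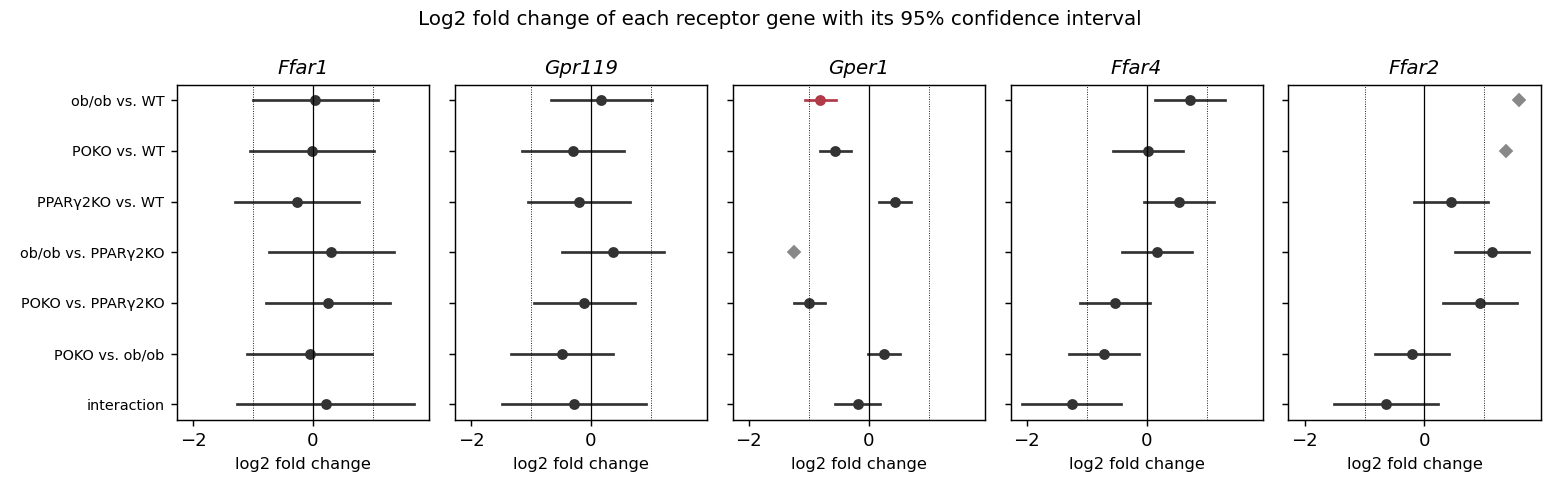
Log2 fold change of each receptor gene in the 6 comparisons and the interaction (horizontal axis), with its 95% confidence interval from the limma fit. The red point passed the adjusted p, dotted lines mark the fold criterion of 1, and grey diamonds are the 3 differences already known from these arrays, drawn without interval. The red point is Gper1 in ob/ob vs. WT, at -0.81.

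B cell, T cell and endothelial marker genes also had higher summed signals on all ob/ob and POKO arrays than on all WT arrays. The summed signal of 5 B cell genes was 6.40 to 6.69 in WT, 10.28 to 11.88 in ob/ob and 10.15 to 11.75 in POKO on the log2 scale, and 5.91 and 6.88 on PPARγ2KO replicates 1 and 3 but 11.45 on replicate 2. On that array Ffar2 read 8.70, between its neighbours in the group. The T cell genes summed to 8.76 to 8.84 in WT, 9.78 to 11.24 in ob/ob, 9.10 to 10.70 in POKO and 8.05 to 10.33 in PPARγ2KO. The endothelial genes summed to 10.67 to 12.06 in WT, 11.84 to 12.24 in PPARγ2KO, 12.46 to 12.95 in ob/ob and 12.09 to 12.51 in POKO. Neutrophil genes were at 3.93 to 5.26 in WT, 6.62 to 9.09 in PPARγ2KO, 4.61 to 9.07 in ob/ob and 9.29 to 12.84 in POKO, with Csf3r and Cxcr2 not well above background on any ob/ob array. Of the 6 T cell genes 4 (Cd3d, Cd3g, Cd8a and Lck) rose in ob/ob vs. WT, though with the slide as a block the adjusted p of Cd3g was 0.0697 and that of Cd8a 0.0548. The other T cell genes were Cd3e, at -1.48 (adjusted p = 0.118) and lower on all ob/ob than on all WT arrays, and Cd4, at -0.11 (adjusted p = 0.732). FFAR2 is known as well from neutrophils and other immune cells. Beta cell genes summed to 19.27 to 19.74 in WT, 19.51 to 19.69 in PPARγ2KO, 19.75 to 19.84 in ob/ob and 19.63 to 19.68 in POKO. On this sum ob/ob stood apart from WT and POKO did not. It is mostly insulin signal, since Ins2 read 18.92 and Ins1 17.62 in WT and the other beta genes were far dimmer. Of the 7 genes 5 were higher and 2 lower in ob/ob vs. WT, and 4 and 3 in POKO vs. WT. Nkx6-1 rose by 1.09 in ob/ob (adjusted p = 0.0397). Mafa was at -1.13 in ob/ob and -1.95 in POKO, and Slc2a2 at -0.60 and -1.56, none past the test.

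The summed signal of the duct marker genes was lower in ob/ob than in WT, as Gper1 was. It was 16.30 to 16.50 in WT, 16.15 to 16.56 in PPARγ2KO, 15.57 to 16.16 in ob/ob and 15.85 to 16.41 in POKO, with all ob/ob arrays below all WT arrays. Of the 4 duct genes Krt19, a keratin, fell by 1.57 in ob/ob vs. WT (adjusted p = 0.0173) and Cftr, the chloride channel of duct cells, by 1.33 (adjusted p = 0.0436, and 0.0659 with the slide as a block). Krt7 was at 0.54 (adjusted p = 0.153) and Spp1 at 0.72 (adjusted p = 0.132). Alpha cell genes summed to 17.38 to 17.67 in WT and 17.72 to 17.81 in ob/ob, and adipocyte genes to 9.87 to 11.20 and 11.64 to 11.84, with the defining genes Adipoq, Plin1 and Lep well above background on no ob/ob array. Macrophage and fibroblast sums overlapped between WT and ob/ob. The part of any of these cells in the Ffar2 and Gper1 values was not tested.

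**Figure D3:**
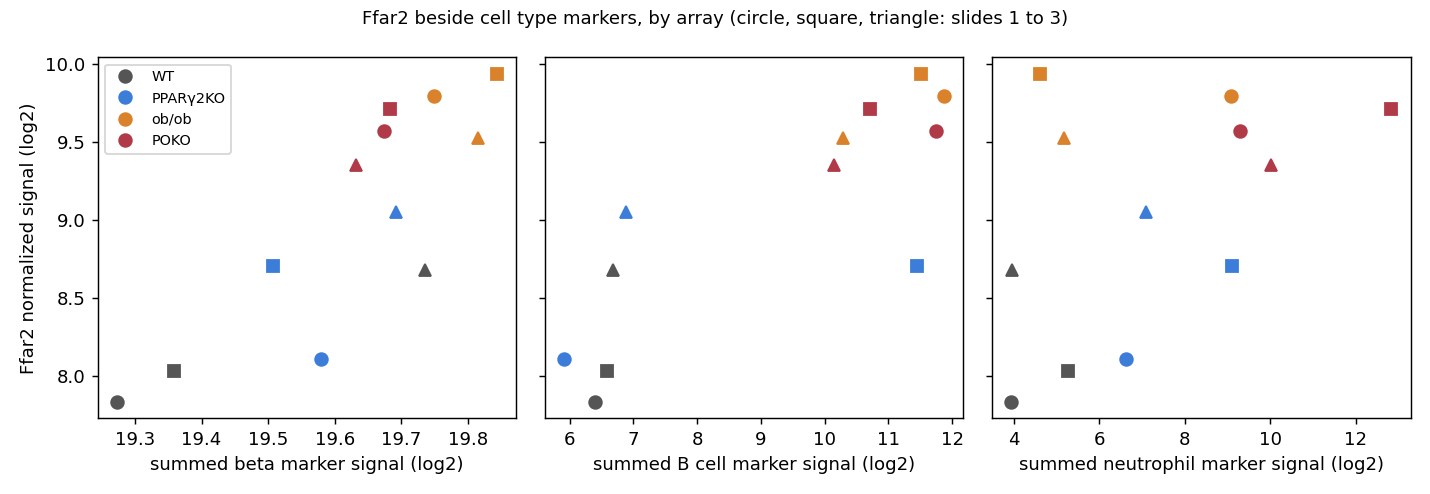
Ffar2 signal (log2, vertical) against the summed signal of beta, B cell and neutrophil marker genes (log2, horizontal), 1 point per array, coloured by genotype and shaped by slide. PPARγ2KO replicate 2 had a B cell sum of 11.45 with Ffar2 at 8.70, and the ob/ob arrays had Ffar2 at 9.53 to 9.94 with neutrophil sums of 4.61 to 9.07.

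The genes whose signal followed each receptor most closely over the 12 arrays were named among 11686 genes well above background on all arrays. This is a description over arrays that share genotypes and slides. Ffar2 went with Chgb, the secretory granule protein chromogranin B (Pearson r = 0.99), with Inhbb (0.97) and with Sh3kbp1 (0.97). Chgb was 14.74 ± 0.69 in WT and 16.88 ± 0.23 in ob/ob (SD, n = 3), and after each genotype's mean was removed its r with Ffar2 was 0.94. Gper1 went with Rps6kb1 (0.96), the S6 kinase, Mtch2 (0.95) and Slc5a3 (0.95), the inositol transporter. With genotype means removed, these fell to 0.76, 0.54 and 0.82. Ffar4 went with Prkar1a (0.94), a regulatory subunit of protein kinase A, Pla2g2f (0.94) and Gprin1 (0.94), and Gpr119 with Ank3 (0.985), Vwa5b2 (0.96) and Slitrk6 (0.95). With genotype means removed, r was 0.86 to 0.91 for the Ffar4 genes and 0.96 to 0.98 for those of Gpr119. It was 0.83 for Inhbb and 0.88 for Sh3kbp1 with Ffar2. Among the receptors themselves, Ffar2 and Gper1, both chosen on these levels, had r = -0.81 over the 12 arrays.

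The genes beside the receptors were read for the same arrays. Cd22, a B cell surface receptor 3934 bases from Ffar1, was at 3.53 in WT and 6.70 in ob/ob on the log2 scale, a difference of 3.16 (adjusted p = 0.0801). Rbp4, the retinol carrier 2357 bases from Ffar4, differed by 0.49 (adjusted p = 0.174), and Slc25a14, a mitochondrial carrier beside Gpr119, by 0.10 (adjusted p = 0.572). Gpr146, near Gper1, differed by -0.24 (adjusted p = 0.509). None of the measured neighbours that are not receptors of the list passed the test in ob/ob vs. WT. The transcript Gm32236 overlaps Ffar2 and had no probe here, and whether the Ffar2 probe reads it was not tested.

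The 7 lists of genes around the receptors held 154 genes, 145 of them with a probe, each gene taken by its brightest probe. In ob/ob vs. WT 20 rose and 3 fell past both criteria, or 15.9% of those measured against 6.68% of all named genes. The lists were drawn up with earlier results of these data known, so these shares are a description and no excess is read from them. In POKO vs. WT 1 rose against 0.191% of all named genes, and in the other 4 comparisons none was past them, where 0.00578% of named genes were in ob/ob vs. PPARγ2KO and 0% in the rest. The count of 23 was not stable, since it was 0 without WT replicate 1, WT replicate 2, ob/ob replicate 2 or ob/ob replicate 3. It was 11 to 14 with a POKO array left out, 2 in a fit on the WT and ob/ob arrays alone and 3 with normexp correction. With the slide as a block 21 of the 23 remained past the criteria, and Cckbr (adjusted p = 0.0526) and Hsd17b1 (0.063) did not. The gene past them in POKO vs. WT, Cysltr1, did not either (adjusted p = 0.0985).

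Regulators of receptor desensitisation held the most calls among these lists, which were drawn up with earlier results of these data known. Of 15 measured genes 7 rose in ob/ob vs. WT and none fell, or 46.7% against 6.68% of all named genes. The median difference was 1.06 against -0.06 over all named genes. Grk3, a kinase that phosphorylates activated receptors, rose by 1.11 (adjusted p = 0.0431). Rgs10 (1.74, adjusted p = 0.0321), Rgs17 (1.54, 0.0313), Rgs5 (1.46, 0.0175) and Rgs9 (1.28, 0.0252), which speed the switching off of G proteins, rose as well, on the log2 scale. Rgs16 and Rgs7 completed the 7. The kinases related to Grk3 did not rise with it, with Grk2 at -0.50 (adjusted p = 0.0621) and Grk4, Grk5 and Grk6 between -0.09 and 0.06. In POKO vs. WT none of the 15 passed, with a median of 0.35, and for POKO vs. ob/ob the median was -0.22 with none past the criteria.

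Of the 32 measured receptors for other lipids and metabolites, 5 rose and 1 fell in ob/ob vs. WT, or 18.8% against 6.68% of all named genes. S1pr4, a sphingosine 1-phosphate receptor of lymphocytes, was at background on all WT arrays, and ob/ob islets had at least 3.96-fold more signal (adjusted p = 0.0308). Gpr18 had at least 1.78-fold more (adjusted p = 0.0311), likewise with no WT array above background. Such bounds set the ob/ob mean against the mean, per array, of the lowest signal well above background or the probe's own signal if higher. Tbxa2r, the thromboxane receptor, rose by 1.86 (adjusted p = 0.0243), though it was well above background on only 1 of 3 WT arrays. S1pr1, known from endothelium and lymphocytes, rose by 1.22 (adjusted p = 0.0282). Ptgdr2, a prostaglandin D2 receptor, fell by 1.15 (adjusted p = 0.0265). Cysltr1, a leukotriene receptor, passed for both leptin-deficient genotypes against WT (adjusted p = 0.0276 in ob/ob and 0.0372 in POKO) but was well above background on 0 of 3 WT and 0 of 3 ob/ob arrays and 3 of 3 POKO arrays, so no fold is given.

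Receptors for islet peptides and amines gave 2 rises and 2 falls among 22, or 18.2% against 6.68% of all named genes. Adra2a, the receptor through which adrenaline restrains insulin release, rose by 1.77 (adjusted p = 0.0289), and Casr, the calcium-sensing receptor, by 1.06 (adjusted p = 0.0314). Casr was well above background on only 1 of 3 WT arrays. Htr2b, the serotonin receptor linked to beta cell proliferation in pregnancy, fell by 1.60 (adjusted p = 0.0415), and Cckbr fell by 1.37 (adjusted p = 0.0374). The receptors Glp1r and Gipr were not past the criteria. In this list the median was -0.47 against -0.06 over all named genes, and only 10 of the 22 genes were well above background on all arrays.

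Downstream, the Gq branch that FFAR1 uses had 0 of 19 genes past both criteria in ob/ob vs. WT by limma, with 1 higher and 3 lower by the adjusted p alone. In that comparison 6.68% of all named genes were past both criteria, and 11.1% of all probes passed the adjusted p alone. A count of 0 or 1 past both criteria among 19 is near that share and is not read as a result. In the Gs and Gi branch 3 of 26 (11.5%) rose, the adenylyl cyclases Adcy7 (1.40, adjusted p = 0.0351) and Adcy4 (1.16, 0.0285) and the kinase subunit Prkacb (1.07, 0.0381). Of 19 genes that supply or take up the lipids only Fabp3, a fatty acid binding protein, rose, by 1.36 (adjusted p = 0.0376). Of 12 measured genes of oestrogen receptors and steroid conversion, 16.7% were past both criteria. Hsd17b2 had at least 2.48-fold more signal in ob/ob (adjusted p = 0.04). Hsd17b1 passed with 1 of 3 ob/ob and 0 of 3 WT arrays above background and no fold is given. The nuclear receptors Esr1 and Esr2 read as background on every WT and ob/ob array.

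**Figure D4:**
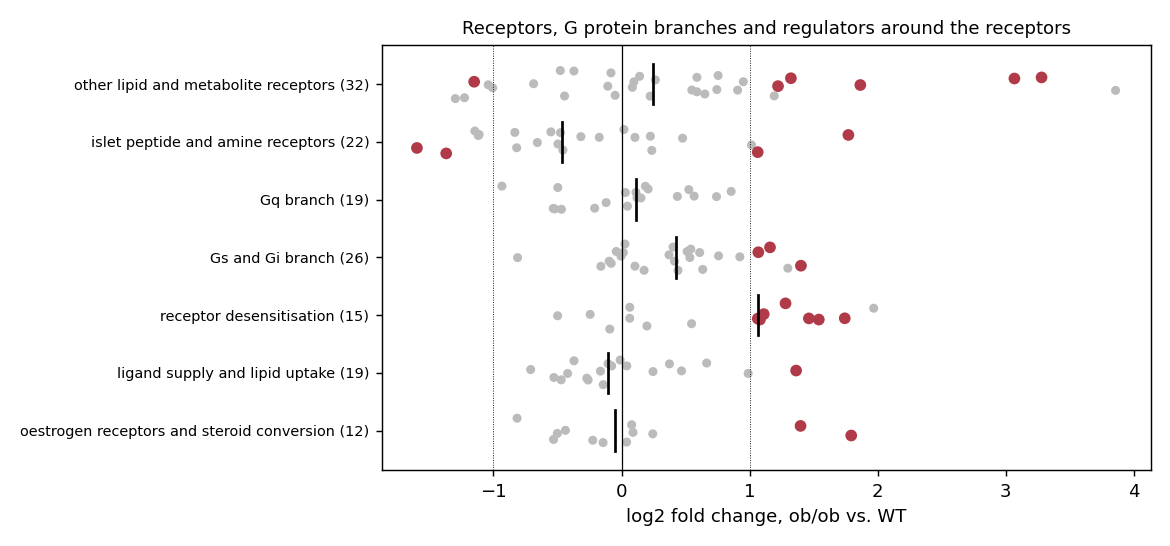
Log2 fold change in ob/ob vs. WT (horizontal axis) of the measured genes of the 7 lists (number measured in brackets), 1 point per gene, red where past both criteria, with the list's median as a black bar and vertical scatter for display only. The desensitisation list has 7 of 15 genes in red and a median of 1.06, and the Gq branch has 0 of 19. Over all named genes 6.68% were past both criteria.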

How the data were processed

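Total RNA of pooled islets was labelled with Cy3 and hybridized to 12 Agilent 4x44K 1-colour arrays. Per the file headers, Feature Extraction 10.1.1.1 gave the deposited processed signal, a background-subtracted intensity. The authors' normalized values on the log2 scale, deposited for the same arrays, served as an alternative. After the authors' methods, processed signals of 43379 non-control spots were here quantile-normalized on the linear scale and then log2 transformed, 919 outlier spots were left out, and spots were averaged to 41174 probes. Genotype was the only factor in limma 3.58.1 (R 4.3.3; lmFit, eBayes), with Benjamini-Hochberg over all probes. The array block of the authors' methods cannot be fitted with 1 sample per array. The criteria were an adjusted p of at most 0.05 and a log2 fold change of 1 or more in size. RefSeq accessions gave 25097 probes a symbol. A probe was well above background where all its non-outlier spots were.

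The members and lists were chosen with earlier results of these data known. Named were the receptors, up to 4 genes per list past the criteria by fold, the 3 most correlated genes, the 3 neighbours on each side, Pparg and Lep. Grk3, Rgs16, Rgs7, S1pr1, Ptgdr2, Glp1r, Gipr, Esr1, Esr2, Csf3r, Cxcr2, Sst, Hhex, Cd3e, Cd4, Krt7, Spp1, Adipoq and Plin1 lie outside that rule and were named after their values were seen. The same holds for Ins1, Ins2, Mafa, Slc2a2, Grk2, Grk4, Grk5 and Grk6. Alternatives were other scaling, background correction, filter, outlier, weight, block and probe settings and each array left out. The fit was tested on simulated data. Replicate numbers match slides, but same-slide deviations correlated between -0.32 and 0.28 over 20405 probes. The number of arrays limits the precision.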

Additional observations from a re-analysis of the deposited data

How the results depend on the processing

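The differences that chose the genes are no test and are left out of the receptor counts here. Of the tested differences none passed both criteria in any of the 6 comparisons, a count of 0, also with the replicate block, which changed no receptor call and took the POKO vs. WT count over the lists from 1 to 0. The labels do not say that a number marks a shared batch. The receptor count was 1 in ob/ob vs. WT with no fold criterion (Gper1), and 1 in ob/ob vs. PPARγ2KO (Ffar2) and in POKO vs. PPARγ2KO (Gper1) with array weights. With single arrays left out it ranged from 0 to 1 in ob/ob vs. PPARγ2KO and in POKO vs. PPARγ2KO, in both from PPARγ2KO replicate 3, and was 0 in the other 4 comparisons. The list count of 23 in ob/ob vs. WT was 3 with normexp and 2 in a fit on the groups compared, and 0 to 31 with an array left out. In POKO vs. WT it was 0 with normexp or the mean of all probes, 2 in a fit on the groups compared, 5 with the filter on dim probes (24291 probes kept) and 16 with array weights, and 0 to 7 with an array left out. The cause was not tested.

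None of the log2 fold changes that changed sign passed a test. For Ffar1 in POKO vs. WT it was 0.31 with 75th percentile scaling and 0.16 with array weights, and 0.0688 in POKO vs. ob/ob with array weights. With normexp it was -0.0103 in POKO vs. PPARγ2KO and -0.0131 for the interaction, and Ffar4 was -0.0154 in POKO vs. WT. Gpr119 in POKO vs. PPARγ2KO was 0.0486 with 75th percentile scaling. With an array left out, Ffar1 ranged from -0.14 to 0.29 (ob/ob vs. WT), -0.20 to 0.23 (POKO vs. WT), -0.81 to 0.21 (PPARγ2KO vs. WT), -0.17 to 0.84 (ob/ob vs. PPARγ2KO), -0.22 to 0.79 (POKO vs. PPARγ2KO), -0.19 to 0.17 (POKO vs. ob/ob) and -0.26 to 0.75 (interaction). Gpr119 ranged from -0.10 to 0.49 (ob/ob vs. WT), -0.57 to 0.0132 (POKO vs. WT), -0.55 to 0.12 (PPARγ2KO vs. WT), -0.33 to 0.25 (POKO vs. PPARγ2KO) and -0.60 to 0.0757 (interaction), and Ffar4 from -0.23 to 0.29 (POKO vs. WT). Scaling to the 75th percentile shifted the median difference between ob/ob and WT, taken over every probe, by -0.113.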
